A study of Citrus sinensis with 36 samples.

Results

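CsERF74, listed as Cs1g16690 in the deposited gene table, was described across 6 sweet orange varieties in pulp and peel. It was chosen by its identifier as 1 gene of 29654, and its deposited description gives RAP2-12 of Arabidopsis as the closest protein match. The study had named it as a hub factor of a co-expression module built from the same libraries, so the group patterns below are not independent evidence for that choice. Fruit RNA was sequenced from 3 late-ripening Valencia oranges (VOs), named Cutter Valencia, Delta Valencia and also Rohde Red Valencia, and 3 mid-ripening common sweet oranges (COs: Jincheng, Taoye and Xianfeng). The sample labels write SO for the VO group. Each variety gave 3 pulp and 3 peel libraries, 36 altogether. All fruits were picked at 220 days after flowering (DAF). At that date, per the study, COs were mature and VOs still colouring, so group and maturity cannot be told apart. Each replicate pooled fruit of several trees, and libraries of 1 variety share that variety. A dissected tissue holds several cell types, and more cells of a type cannot be told apart from more RNA per cell.

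RAP2-12 belongs to group VII of the ethylene response factors (ERFs), DNA-binding proteins that carry an AP2 domain. In Arabidopsis RAP2-12 is made all the time, and proteins of this group are destroyed while oxygen is present. Methionine aminopeptidases expose a cysteine at the N-terminus of these proteins, plant cysteine oxidases oxidise it and an arginyl transferase adds arginine. The ubiquitin ligase PRT6 then marks the protein for breakdown. When oxygen runs low the proteins persist and switch on genes of fermentation and oxygen sensing, such as pyruvate decarboxylase, alcohol dehydrogenase, hemoglobin, LBD41 and the plant cysteine oxidases themselves. In Arabidopsis, RAP2-12 is also held at the plasma membrane by some of the acyl-CoA-binding proteins. The level of the transcript, measured here, is therefore only part of what sets the amount of the protein.

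CsERF74 was among the transcripts with the highest listed levels in both tissues. Its level is given in FPKM, that is, sequenced fragments scaled to the deposited gene length and to the mapped fragments of the library. Deposited lengths probably include introns, so the order of genes by FPKM need not be their order by number of transcripts. By mean FPKM CsERF74 ranked 100 of 29654 genes in pulp and 150 in peel. Of the 692 genes described as transcription factors it was number 2 in pulp, after the NAC gene Cs5g26130 with 543 FPKM, and number 4 in peel. Of the 110 genes described as ERF or DREB proteins it was the highest in pulp with 310.0 FPKM, ahead of Cs2g14570 (match ERF114) with 213 FPKM. In peel it stood at 198 FPKM, behind Cs9g13620 (match ERF5 of tobacco) with 225 FPKM. Libraries held 14820300 to 18842300 mapped fragments, and CsERF74 took 13150 to 19070 of them in pulp and 9090 to 11917 in peel. Counting error alone was thus 0.724% to 1.05% of each value, which is the precision depth allows and covers no other error.

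In pulp, every VO library lay above every CO library. Cutter Valencia pulp had 328, 319 and 325 FPKM. Delta Valencia pulp had 345, 350.5 and 344 FPKM. Rohde Red Valencia pulp had 340.3, 335 and 327 FPKM. The Delta Valencia libraries were the 3 highest of the 36. Among the COs, Jincheng pulp had 284, 283 and 263 FPKM. Taoye pulp had 282, 285 and 280.2 FPKM, and Xianfeng pulp had 303, 296 and 291 FPKM. The lowest VO library, 319 FPKM, stood above the highest CO library, 303 FPKM, and the Jincheng library at 263 FPKM was the lowest of all pulp libraries. The share of all genes whose VO and CO pulp libraries part in this way was not counted. Such a gap was not particular to CsERF74, as its relative Cs9g03820 had one in the other direction.

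In peel the groups overlapped. Cutter Valencia peel had 190, 185 and 193 FPKM. Delta Valencia peel had 214, 214 and 212 FPKM, and Rohde Red Valencia peel had 193, 193 and 195 FPKM. Delta Valencia again was highest, while Cutter and Rohde Red Valencia lay among or below the COs. Jincheng peel had 202, 200.2 and 203 FPKM. Taoye peel had 195, 189 and 188 FPKM, and Xianfeng peel had 197.9, 196.7 and 195.7 FPKM. The whole peel range ran from 185 to 214 FPKM.

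**Figure D1:**
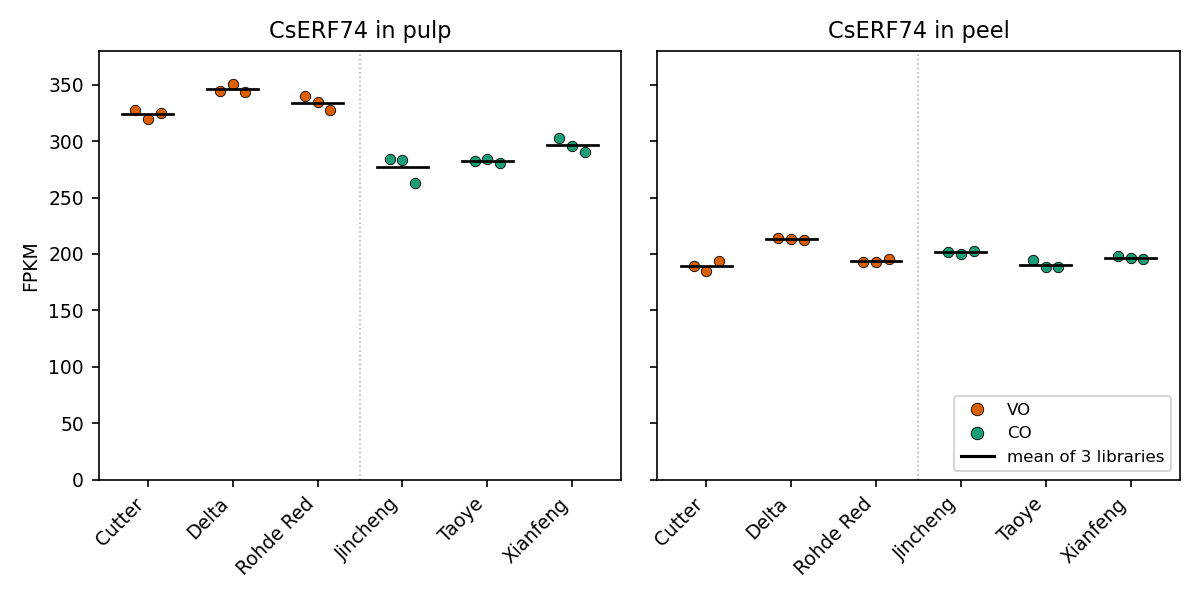
CsERF74 level (FPKM, axis from 0) in each library of pulp (left) and peel (right) by variety; points are the 3 libraries of a variety, bars their mean, and the dotted line parts VOs from COs. VO pulp libraries sit between 319 and 350.5 FPKM, above the CO pulp libraries at 263 to 303 FPKM, and all peel libraries lie at 185 to 214 FPKM.

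Over variety means, CsERF74 in pulp averaged 335 ± 11.2 FPKM in VOs and 285 ± 10.1 FPKM in COs (SD, n = 3 varieties each). This is a difference of 0.23 on the log2 scale (SE 0.08, VO minus CO), or 1.17-fold. In limma over all 17222 genes kept in pulp it did not pass the threshold of 0.05 (adjusted p = 0.101, unadjusted p = 0.0306). The fit called 12.0% of genes higher in VO pulp and 7.48% of them lower. The exact two-sided permutation test over the 6 variety means gave p = 0.10, the smallest that 3 against 3 varieties can give. The limma error is pooled across genes of like level, and the error from the 6 values of CsERF74 alone was smaller (0.04). With libraries as replicates and the variety as a random block, the adjusted p was 0.000403 for the same difference. The size of the difference also depended on scaling: quantile normalization between libraries gave 0.13 on the log2 scale (adjusted p = 0.263). Pulp libraries differed in other ways between the groups. Of 28 tested genes for chlorophyll-binding and photosystem proteins, which mark green tissue, 22 were higher in VO pulp and none lower, and their summed FPKM was 237 to 282 in VO pulp libraries and 121 to 132 in CO pulp libraries. Of the 33 such genes, 3 were at 0 in all VO pulp libraries and 3 in all CO pulp libraries. Of 45 tested cuticle and epidermis genes, 16 were higher and 5 lower in VO pulp, with sums of 215.7 to 278 FPKM in VO pulp and 117 to 161 FPKM in CO pulp, and 34 and 35 of 115 such genes at 0 in VO and CO pulp. Of 6 tested vascular genes, 2 were higher and none lower, with sums of 0.641 to 6.31 FPKM in VO pulp and 0.0386 to 1.38 FPKM in CO pulp. Of the 16 vascular genes, 6 were at 0 in VO pulp and 7 in CO pulp. Of 7 tested limonene synthase genes, which mark oil glands, 3 were higher and none lower in VO pulp, while their median log2 difference was -0.31. Their sums were 58.0 to 136 FPKM in VO pulp and 33.0 to 237 FPKM in CO pulp, so the groups overlapped, with 6 and 7 of 22 genes at 0. Markers also differed in peel, where the CsERF74 log2 difference was 0.02. Of 30 tested green tissue genes, 19 were higher in VO peel and none lower (median log2 difference 1.61). Of 48 tested cuticle and epidermis genes, 15 were higher and 8 lower, while their sums were lower in VO peel than in CO peel. Of 6 tested vascular genes, 3 were higher and none lower. Of 9 tested limonene synthase genes, none was called. The part of these cell types and of maturity in the CsERF74 difference was not tested.

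In peel, CsERF74 averaged 199 ± 12.7 FPKM in VOs and 196.3 ± 5.52 FPKM in COs (SD, n = 3 varieties each). The log2 difference was 0.02 (SE 0.09, adjusted p = 0.912 in limma over 18375 genes; exact permutation p = 0.90). Here 13.2% of genes passed with a higher level in VO peel and 7.15% with a lower level. Of the genes called in peel, 64.9% were higher in VOs as deposited and 54.1% after median-ratio scaling. The sign of this difference rested on single choices: it was -0.04 without Delta Valencia and -0.04 after median-ratio scaling. RNA integrity is listed as lower for VO peel in the sample table of the paper. Without Rohde Red Valencia peel replicate 2, which is lowest in that table, the difference was 0.02 and the tissue difference 0.65.

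Between tissues, CsERF74 was higher in pulp than in peel in all 6 varieties, and in each variety the lowest pulp library stood above the highest peel library. The pulp to peel ratio was 1.71 in Cutter Valencia, 1.62 in Delta Valencia and 1.72 in Rohde Red Valencia. It was 1.37 in Jincheng, 1.48 in Taoye and 1.51 in Xianfeng, so each VO ratio exceeded each CO ratio. The share of all genes with ratios parted in this way was not counted. The mean difference was 0.65 on the log2 scale (SE 0.07, adjusted p = 0.000135 in limma over 18838 genes), or 1.56-fold. The exact sign-flip permutation test over 6 varieties gave p = 0.0313, the smallest it can give. In this fit 20.1% of genes were called higher in pulp and 46.5% lower, and the median gene had a log2 difference of -0.23, so that CsERF74 stood 0.87 above the median gene. Scaling set the size and not the direction: the log2 difference was 0.38 (adjusted p = 0.00127) after quantile normalization and 0.82 (adjusted p = 5.32e-05) after median-ratio scaling. Of all genes called between the tissues, 30.2% were higher in pulp as deposited, 53.9% after quantile normalization and 45.3% after median-ratio scaling.

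The pulp minus peel difference was 0.75 ± 0.05 in VOs and 0.54 ± 0.07 in COs (log2, SD, n = 3 varieties each). This gap between the groups was 0.21 on the log2 scale (SE 0.11) and did not pass in limma (adjusted p = 0.266), where 7.05% of genes were called in either direction. The exact permutation test gave p = 0.10, again the smallest possible. With the variety as a random block over libraries the adjusted p was 3.70e-06. That fit takes libraries as replicates for this gap, so its p does not measure how varieties of a group differ in it. After quantile normalization the gap was 0.08 (adjusted p = 0.705).

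Single varieties were then set in order by their libraries. The p-values of these pairs rest only on how libraries of one variety scatter, a scatter of 0.769% to 4.28% of the mean in pulp and 0.339% to 2.20% in peel. In pulp the order was Delta Valencia (346 FPKM), Rohde Red Valencia (334 FPKM), Cutter Valencia (324 FPKM), Xianfeng (296 FPKM), Taoye (282 FPKM) and Jincheng (276.8 FPKM). All 9 pairs of a VO and a CO variety were called, with log2 differences of 0.13 to 0.32 (SE 0.03, limma, adjusted p at most 0.000818). For comparison, 52.4% of all gene and pair combinations were called among these pairs. Within the groups 3 of 6 pairs were called: Cutter against Delta Valencia (-0.10), Jincheng against Xianfeng (-0.10) and Taoye against Xianfeng (-0.07). The background was 28.1% of gene and pair combinations. After quantile normalization 7 of the 9 pairs across the groups were called, and Cutter Valencia against Taoye (0.05, adjusted p = 0.0995) and against Xianfeng (0.04, adjusted p = 0.270) were not. Within the groups Taoye against Xianfeng then lost its call (-0.02, adjusted p = 0.667), and Jincheng against Taoye gained one (-0.08, adjusted p = 0.0249). Of the 6 pairs within groups 0 were called without replicate 1, 1 without replicate 2 and 2 without replicate 3. As deposited, the neighbours Delta and Rohde Red Valencia (0.05, adjusted p = 0.232), Cutter and Rohde Red Valencia (-0.04, adjusted p = 0.273) and Jincheng and Taoye (-0.03, adjusted p = 0.417) did not differ beyond that spread.

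In peel the order was Delta Valencia (213 FPKM), Jincheng (202 FPKM), Xianfeng (197 FPKM), Rohde Red Valencia (194 FPKM), Taoye (191 FPKM) and Cutter Valencia (189 FPKM), and VOs and COs were mixed. Delta Valencia exceeded each of the other 5 varieties, by 0.08 over Jincheng up to 0.17 over Cutter Valencia. Jincheng exceeded Cutter Valencia, Rohde Red Valencia and Taoye, and Xianfeng exceeded Cutter Valencia. Together these were 6 of 9 pairs across the groups and 3 of 6 within them, where the background was 50.2% and 26.9% of gene and pair combinations. Apart from Delta Valencia and Jincheng, no neighbours in this order were called (adjusted p of 0.0817 or more over all pairs not called). After quantile normalization 4 of the 9 pairs across the groups and 2 of the 6 within them were called: Delta Valencia still exceeded each other variety and Jincheng Cutter Valencia, while Jincheng against Rohde Red Valencia (adjusted p = 0.0589) and Taoye (adjusted p = 0.0623) and Xianfeng against Cutter Valencia (adjusted p = 0.819) were not called. Across the groups 4 pairs were called without replicate 1 and 3 without replicate 2, and without replicate 2 only 5 of all 15 peel pairs were called in place of 9.

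CsERF74 was next set beside its closest relatives. The deposited descriptions gave 6 group VII genes, of which 5 match RAP2-3, a smaller member of the group in Arabidopsis. Of these, Cs7g21800, Cs7g21810 and orange1.1t01545 are listed at 0 in all 36 libraries, and their deposited lengths are short (356, 290.0 and 215 bases). Only CsERF74, Cs9g03820 and Cs5g33540 had reads. CsERF74 made up 75.2% to 81.3% of the summed FPKM of the family in VO pulp and 60.7% to 70.9% in CO pulp. In peel its share was 56.9% to 67.5% in VOs and 56.1% to 63.6% in COs. These shares compare genes per deposited length, which is 3142 bases for CsERF74. For genes that could be matched to RefSeq the deposited length was close to the genomic span with introns (median ratio 1.01), and CsERF74 itself was not matched.

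Cs9g03820 differed in the other direction in pulp. In pulp it had 69.8, 67.5 and 66.8 FPKM in Cutter Valencia, 49.0, 49.7 and 50.7 FPKM in Delta Valencia, and 55.6, 58.5 and 56.1 FPKM in Rohde Red Valencia. It had 111.6, 112.6 and 112.8 FPKM in Jincheng, 111, 107 and 107 FPKM in Taoye, and 139, 133 and 132 FPKM in Xianfeng. The VO pulp libraries thus lay at 49.0 to 69.8 FPKM, below all CO pulp libraries at 107 to 139 FPKM. As for CsERF74, the share of all genes parted in this way was not counted. In peel the groups overlapped, at 78.3 to 125 FPKM in VOs and 99.4 to 129 FPKM in COs, and Delta Valencia was the lowest. Cs9g03820 fell by 1.03 on the log2 scale in VO pulp relative to CO pulp (adjusted p = 0.00517 in limma), a call that held under all 18 alternatives run for it. Its peel difference was -0.16 (adjusted p = 0.525). The test of the difference between tissues gave -0.87 on the log2 scale (adjusted p = 0.0235), a call that was lost when any variety but Taoye was left out (adjusted p up to 0.0858).

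The ratio of CsERF74 to Cs9g03820 in pulp was 5.79 in VOs and 2.42 in COs, and the 6 variety values did not overlap between the groups. How many other gene ratios part in this way was not counted. In peel the ratio of CsERF74 to Cs9g03820 was 1.94 in VOs and 1.72 in COs. The log2 ratio differed by 1.26 in pulp (exact permutation p = 0.10, the smallest possible, 0.40 after adjustment over 4 ratios) and by 0.18 in peel (exact permutation p = 0.60).

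Cs5g33540 varied by variety rather than by group. In pulp it ranged from 19.7 FPKM in a Rohde Red Valencia library to 63.7 FPKM in a Delta Valencia library, and from 10.2 FPKM in Taoye to 56.1 FPKM in Xianfeng. In peel all its values lay between 15.1 and 23.8 FPKM. It was not called in VO against CO pulp (0.25, adjusted p = 0.817) or in pulp against peel (0.81, adjusted p = 0.0515), and its ratio to CsERF74 differed between VOs and COs by -0.02 in pulp (exact permutation p = 0.90).

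**Figure D2:**
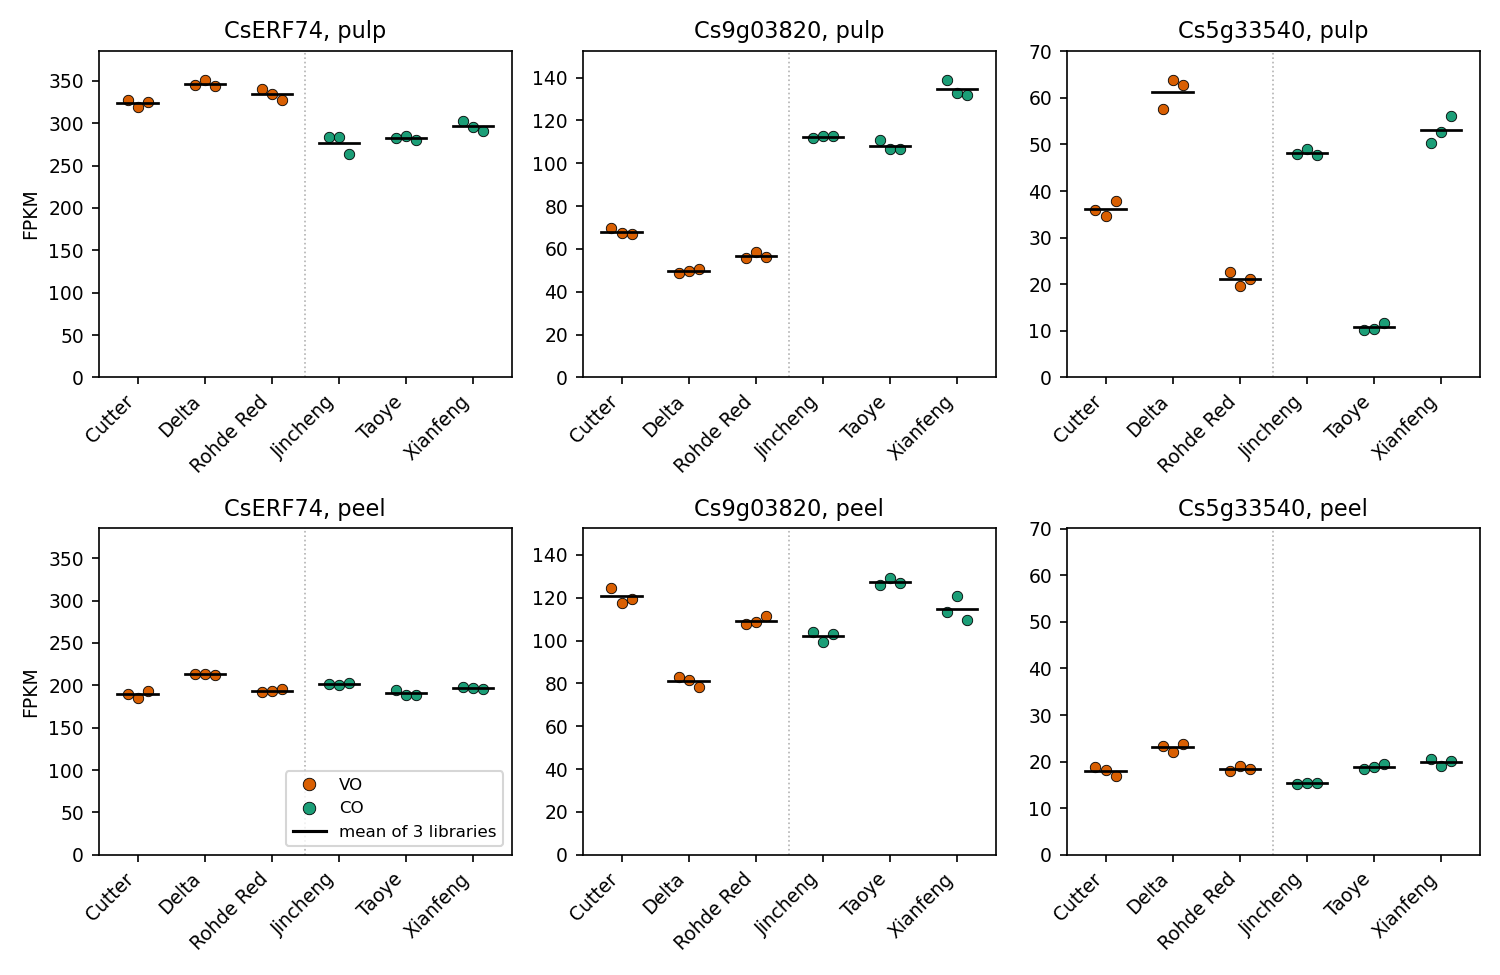
Levels (FPKM, each gene on its own axis from 0) of CsERF74, Cs9g03820 and Cs5g33540 in pulp (top) and peel (bottom) by variety; points are libraries and bars the mean of 3. CsERF74 is higher and Cs9g03820 lower in all VO pulp libraries, while Cs5g33540 follows single varieties, from 10.2 FPKM in Taoye pulp to 63.7 FPKM in Delta Valencia pulp.

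Genes that follow CsERF74 were ranked by Pearson r of log2 levels over the 18 libraries of each tissue. Of the 13440 other genes averaging 1 FPKM or more in each tissue, 1561 had r of 0.8 or more in pulp and 155 in peel, and 25 had it in both. In pulp the VO and CO libraries form separate clusters, so r there includes the gap between the groups. In peel, Delta Valencia stands at the high end of CsERF74. Libraries of a variety are not independent points, and r is given as a description only. No gene reached r of 0.8 in all 4 groups of 9 libraries (VO and CO in pulp and peel), and 11 reached 0.7.

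The 10 genes whose lower r was highest began with Cs6g19205, which has no protein match, with r of 0.93 in pulp and 0.91 in peel. Within groups its r was 0.64 in VO pulp, 0.64 in CO pulp, 0.96 in VO peel and 0.89 in CO peel. Its level was 162 to 186 FPKM in VO pulp and 73.6 to 129 FPKM in CO pulp, with no overlap, and 102 to 165 FPKM in VO peel and 104 to 155 FPKM in CO peel. Second was orange1.1t04699, matched to a lipid-transfer-like protein of Arabidopsis, with r of 0.96 in pulp and 0.90 in peel, and 0.61 to 0.91 within the groups. It stood at 8.24 to 16.2 FPKM in VO pulp and 3.44 to 6.30 FPKM in CO pulp. In peel both genes, like CsERF74, were highest in Delta Valencia and next in Jincheng. Both genes were chosen by r with CsERF74 over these libraries. Their gap between the groups in pulp and this order in peel are therefore no separate evidence. In COs both averaged less in pulp than in peel, at 93.6 against 129 FPKM for Cs6g19205 and 4.62 against 13.7 FPKM for orange1.1t04699, unlike CsERF74.

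The third was Cs9g13070, matched to FHIT, a nucleotide hydrolase (r of 0.92 in pulp and 0.86 in peel). The others were Cs4g11090 (match thiamine thiazole synthase, an enzyme of vitamin B1 synthesis; 0.86 and 0.86), Cs7g25390 (mitochondrial malate dehydrogenase of the citric acid cycle; 0.86 and 0.89), Cs5g30530 (a histone H2A variant; 0.90 and 0.86) and Cs6g18010 (no match; 0.85 and 0.88). The last 3 were Cs4g04430 (isoamylase, a starch debranching enzyme; 0.85 and 0.87), Cs7g04920 (the nuclear transport GTPase Ran-3; 0.89 and 0.85) and Cs2g15990 (RABA1f, a GTPase of vesicle traffic; 0.88 and 0.85). Of these 10, Cs7g04920 had the highest minimum r over the 4 groups, with 0.78 in VO pulp, 0.86 in CO pulp, 0.96 in VO peel and 0.66 in CO peel. For Cs4g11090 the within-group r in VO pulp was -0.83, against 0.86 over all pulp libraries. In VO pulp r was -0.05 for Cs7g25390. In CO pulp it was -0.28 for Cs6g18010, -0.14 for Cs2g15990 and -0.06 for Cs4g04430. All other within-group r of the 10 genes were positive. The ranking itself was loose: 1 of the 10 stayed among the first 10 without Delta Valencia, when the lowest r among them became 0.36, and 3 stayed with Spearman's rho.

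The 5 genes most opposed to CsERF74 in both tissues began with its relative Cs9g03820 (r of -0.89 in pulp and -0.91 in peel). Within groups its r was -0.89 in VO pulp, 0.71 in CO pulp, -0.96 in VO peel and -0.87 in CO peel, so the sign turned among the CO pulp libraries. The others were orange1.1t03802 (match EDS1, a regulator of disease resistance; -0.88 and -0.92), Cs1g13720 (match PDR1, an ABC transporter; -0.93 and -0.87), Cs9g02570 (match BXL1, a cell wall xylosidase; -0.88 and -0.86) and Cs6g15800 (a probable glycosyltransferase; -0.86 and -0.86). Within CO pulp r was also positive for orange1.1t03802 (0.46), Cs9g02570 (0.51) and Cs6g15800 (0.68), and it was -0.21 for Cs1g13720. For Cs6g15800 r within VO pulp was 0.01. Without Delta Valencia the r of Cs9g03820 was -0.83 in pulp and -0.70 in peel.

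When the mean of each group in each tissue was first subtracted, over all 36 libraries, Cs7g04920 came first with r of 0.87. It was followed by Cs1g22500 (a probable serine/threonine kinase, 0.83), Cs7g31900 (probable methyltransferase PMT11, 0.82), Cs8g18400 (actin, 0.82) and Cs7g06260 (a protein like stromal cell-derived factor 2, 0.82). When the mean of each variety was also removed, which leaves library-to-library scatter alone, the highest r of any gene was 0.71. The followers named above then had lower r, from -0.22 for Cs7g25390 to 0.47 for Cs7g31900, with 0.33 for Cs7g04920.

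The other hub factors named by the study had r of 0.82 or more, of either sign, with CsERF74 in pulp, and other values in peel. CsNAC25 (Cs2g06460), a NAC-domain factor, had r of 0.86 in pulp and -0.78 in peel. It averaged 91.3 ± 6.49 FPKM in VO pulp and 60.2 ± 10.7 FPKM in CO pulp (SD, n = 3 varieties each). In VO peel it averaged 24.7 ± 5.30 FPKM and in CO peel 28.01 ± 3.24 FPKM. Like CsERF74 it was called higher in pulp than in peel (1.50 on the log2 scale, adjusted p = 0.000155 in limma), but in peel it was lowest in Delta Valencia, where CsERF74 was highest. CsHSFB3 (orange1.1t02319), a heat stress factor of the repressor class, had r of -0.86 in pulp and -0.06 in peel, with 1.01 to 1.50 FPKM in VO pulp and 3.56 to 5.47 FPKM in CO pulp. The squamosa promoter-binding genes Cs2g23550 and Cs7g10990 had r of 0.82 and 0.86 in pulp and 0.14 and 0.14 in peel, at 5.00 and 2.00 FPKM in VO pulp and 3.30 and 0.952 FPKM in CO pulp. Unlike CsERF74 they were lower in pulp than in peel, with log2 differences of -0.62 and -0.82. Over 1137 genes of the study's module as far as its tables print them, the median r with CsERF74 was 0.44 in pulp and 0.03 in peel, against -0.0029 and 0.05 over all genes compared. The module was built on these libraries, so its median in pulp is no separate evidence.

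**Figure D3:**
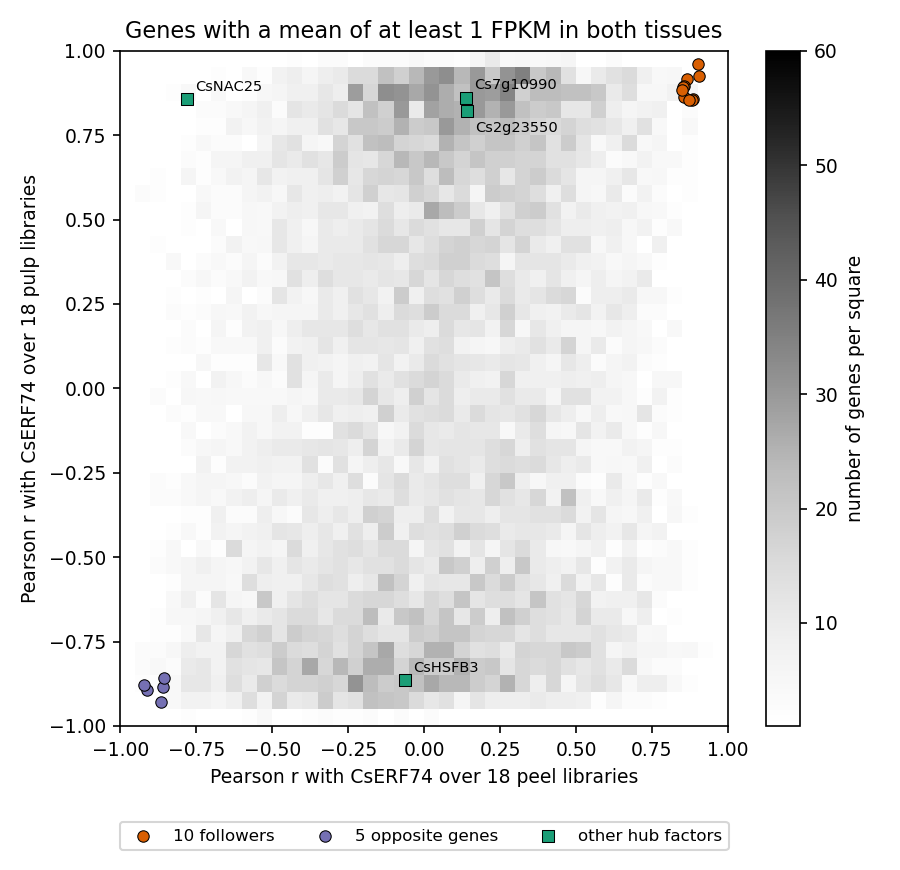
Pearson r with CsERF74 over 18 pulp libraries (vertical) and over 18 peel libraries (horizontal) for 13440 genes that average 1 FPKM or more in each tissue; grey squares count genes, and coloured points are the 10 followers, the 5 opposite genes and the study's other hub factors. Many genes have a high r of either sign in pulp, few have one in peel, and CsNAC25 sits at 0.86 in pulp and -0.78 in peel.

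**Figure D4:**
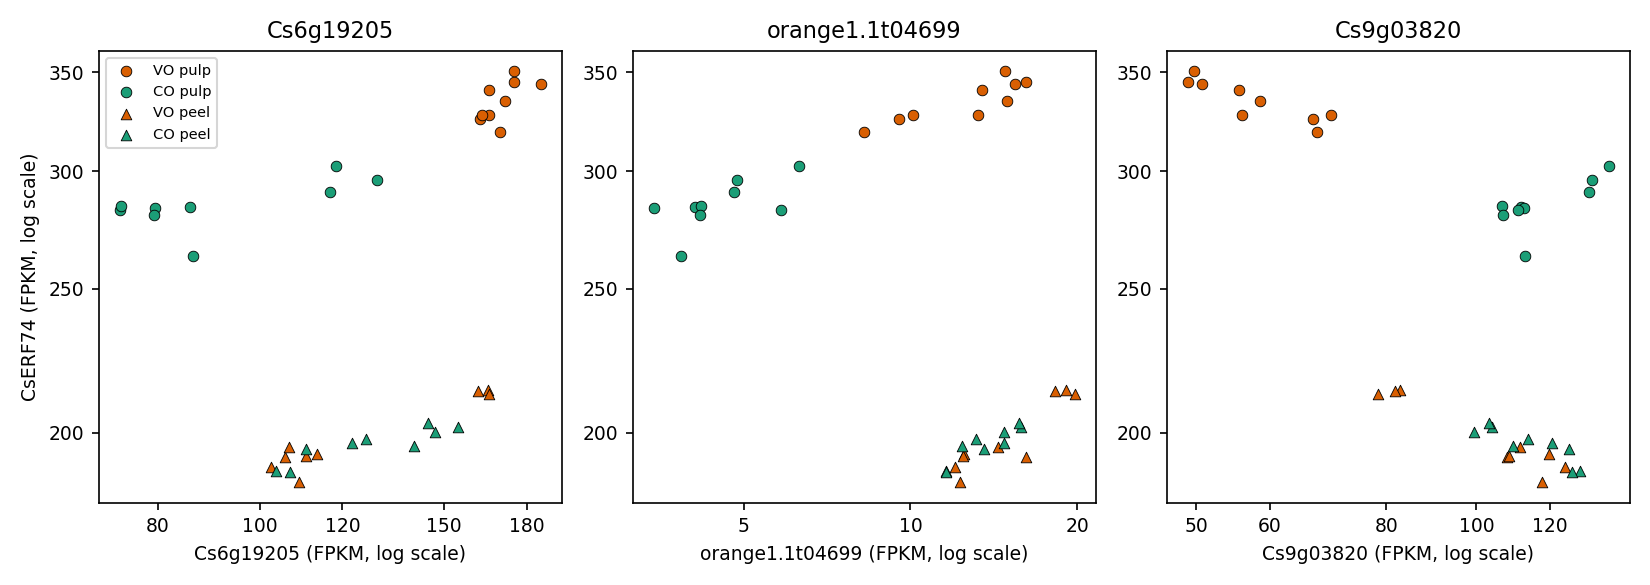
CsERF74 level against the level of Cs6g19205, orange1.1t04699 and Cs9g03820 in the 36 libraries (FPKM, log scales); circles are pulp and triangles peel, with VO and CO in different colours. VO and CO pulp libraries form separate clusters for all 3 genes, and the peel libraries of Delta Valencia lie apart from the other peel libraries.

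Of the enzymes that in Arabidopsis mark group VII proteins for breakdown, the plant cysteine oxidases differed most between tissues. Cs5g27130 (match PCO1) had 7.92 FPKM in VO pulp and 17.1 FPKM in CO pulp, against 0.471 FPKM in VO peel and 1.44 FPKM in CO peel. It was higher in pulp by 3.47 on the log2 scale (adjusted p = 4.69e-05 in limma). Cs6g20830 (match PCO2) was higher in pulp by 1.97 (adjusted p = 1.77e-05), with 14.2 FPKM in VO pulp and 13.9 FPKM in CO pulp, against 3.44 and 3.45 FPKM in VO and CO peel. In Arabidopsis PCO1 and PCO2 are themselves induced by low oxygen. Cs7g26170 (match PCO3) was lower in pulp, at -0.55, and Cs2g15380 (match PCO5), which had 10.6 FPKM in VO pulp and 10.8 FPKM in CO pulp, was not called (0.00, adjusted p = 0.954). In all, 3 of the 11 genes of this branch were called higher in pulp and 3 lower, where 20.1% of all genes were higher and 46.5% lower. The lower ones were PCO3, PRT6 (Cs6g06370) and BIG (Cs6g19770), and the list's median was -0.09 against -0.23 over all genes. The calls of PRT6 and BIG were lost after median-ratio scaling, and that of PRT6 also without Cutter, Delta or Rohde Red Valencia or Xianfeng, and the list's median was 0.08 after quantile normalization and 0.09 after median-ratio scaling. Between VO and CO pulp 1 of 11 was called, where 12.0% of all genes were higher and 7.48% lower. It was Cs7g12880 (match methionine aminopeptidase 1B, described as chloroplastic), higher in VOs by 0.38 (adjusted p = 0.0338). Whether this enzyme acts on group VII proteins was not tested. In peel 0 of 11 were called in limma, 2 had an unadjusted p under 0.05, and 1 was called after quantile normalization. The Cs7g12880 call was lost without Cutter, Delta or Rohde Red Valencia or Jincheng.

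Of the 6 genes for acyl-CoA-binding proteins, 5 were lower in pulp and none higher. Only some members of this family hold RAP2-12 at the membrane in Arabidopsis, and the list takes in the whole family. Over all genes 46.5% were lower and 20.1% higher, and the list's median of -0.30 was close to the -0.23 of all genes. After quantile normalization 2 were lower and none higher, and after median-ratio scaling 3 were lower and 1 higher. The largest fall was in Cs1g21920 (match ACBP3, -2.25 on the log2 scale, adjusted p = 2.86e-05), and the match of ACBP2, orange1.1t01271, fell by 0.27 (adjusted p = 0.00192), a call that was lost under both scalings. The others were Cs9g04780 (match ACBP6 of rice, -0.97), Cs3g14140 (match ACBP4, -0.32) and Cs7g21780 (match ACBP4, -0.21), while Cs3g09650, the most abundant with 59.8 FPKM in VO pulp and 65.3 FPKM in CO pulp, was not called (0.04, adjusted p = 0.599). In VOs 2 of the 6 were higher than in COs and none lower in pulp and likewise in peel: orange1.1t01271 by 0.28 in pulp and 0.37 in peel, and Cs1g21920 by 1.50 in pulp and 1.19 in peel. Of all genes 12.0% were higher and 7.48% lower in VO pulp, and 13.2% and 7.15% in VO peel. In pulp 1 of the 6 was higher and 1 lower after either scaling: the call of Cs1g21920 was lost after quantile normalization and that of orange1.1t01271 after median-ratio scaling. Both pulp calls were lost without Cutter, Delta or Rohde Red Valencia, Jincheng or Taoye, and the peel call of Cs1g21920 without Cutter or Rohde Red Valencia or Jincheng.

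The low-oxygen list was mixed between tissues. It was found by words for gene families with members that group VII factors or low oxygen switch on in Arabidopsis. Other members of those families are counted too. Of 45 genes on this list, 32 were tested between tissues, and 11 were higher and 10 lower in pulp, against 20.1% and 46.5% of all genes, with a median of 0.15 against -0.23 over all genes. After either scaling 17 were higher, with 9 lower after quantile normalization and 7 after median-ratio scaling. Cs6g18700 (match LBD41, a factor induced by low oxygen) had 60.9 ± 14.8 FPKM in VO pulp and 92.3 ± 14.4 FPKM in CO pulp, against 5.48 and 11.1 FPKM in VO and CO peel. It was higher in pulp by 3.25 on the log2 scale (adjusted p = 3.41e-06), and Cs7g26710, also matched to LBD41, by 2.06 (adjusted p = 7.49e-05). Cs6g08840 (match pyruvate decarboxylase 1, the entry to ethanol fermentation) was higher in pulp by 0.64 (adjusted p = 0.00582), with 174 FPKM in VO pulp and 279 FPKM in CO pulp. The alcohol dehydrogenase Cs3g20800 was higher by 3.02 (adjusted p = 4.38e-05) but low, at 1.48 FPKM in VO pulp and 1.40 FPKM in CO pulp. Among genes named after their values were seen, the more abundant alcohol dehydrogenase Cs3g20830 was higher in pulp by 1.01 (adjusted p = 0.00502) and the hemoglobin Cs5g28410 by 1.65 (adjusted p = 4.39e-06). The other hemoglobin, Cs5g28400, was higher by 2.24 (adjusted p = 0.0104).

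Named genes of this list that were lower in pulp included members of other families. The respiratory burst oxidases, which make superoxide at the plasma membrane, had Cs7g19320 (match RBOHC of potato) lower, at -3.08 (adjusted p = 3.95e-06) and Cs5g02940 (match RBOHF) at -1.94 (adjusted p = 0.000993). Their pulp levels were 10.4 and 9.44 FPKM in VOs and 5.56 and 3.23 FPKM in COs. In Arabidopsis the gene of this family tied to RAP2-12 is RBOHD, and its match Cs8g12000, named after its values were seen, was lower in pulp, at -1.59 (adjusted p = 1.43e-05). Sucrose synthase, which cleaves sucrose without spending ATP, was split: Cs5g33470, with 212 FPKM in VO pulp and 212 FPKM in CO pulp, was not called (0.22, adjusted p = 0.0509), and Cs4g06850 was lower, at -0.21 (adjusted p = 0.0312), a call lost after median-ratio scaling and without Delta Valencia, Jincheng, Taoye or Xianfeng. Of the universal stress proteins, Cs9g02340 was lower in pulp, at -0.30 (lost after median-ratio scaling), and Cs2g16410 higher by 0.82.

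Between VO and CO pulp 5 of 31 tested genes of the low-oxygen list were higher in VOs and none lower, against 12.0% and 7.48% of all genes, with a median of 0.11 against 0.02 over all genes. They were Cs5g02940 (1.51, adjusted p = 0.0212), Cs7g19320 (0.91, adjusted p = 0.0347), Cs4g06850 (0.46, adjusted p = 0.00854), the lactate dehydrogenase Cs5g09020 (0.29, adjusted p = 0.0431) and the universal stress protein Cs8g10040 (0.28, adjusted p = 0.0397). Lactate dehydrogenase is an enzyme of fermentation, and the tested genes of ethanol fermentation, hemoglobin and LBD41 were not called. Their log2 differences were of either sign: -0.62 for the pyruvate decarboxylase Cs6g08840 (adjusted p = 0.215), -0.12 for Cs2g05050 with the same match, also named after its values were seen (adjusted p = 0.631), -0.63 for the alcohol dehydrogenase Cs3g20830 (adjusted p = 0.336) and 0.15 for Cs3g20800 (adjusted p = 0.879). The hemoglobins stood at 0.53 for Cs5g28410 (adjusted p = 0.207) and -1.22 for Cs5g28400 (adjusted p = 0.494), and the LBD41 matches at -0.62 for Cs6g18700 (adjusted p = 0.0717) and -0.14 for Cs7g26710 (adjusted p = 0.803). In peel 4 of 31 were higher and 3 lower in VOs, near the 13.2% and 7.15% of all genes. Both LBD41 matches were among the lower ones, Cs6g18700 (-0.98, adjusted p = 0.0184) and Cs7g26710 (-0.63, adjusted p = 0.0218), calls that were lost without Delta or Rohde Red Valencia, and for Cs7g26710 also without Cutter Valencia or Xianfeng. The pulp count of 5 was 1 without Delta Valencia, Rohde Red Valencia or Jincheng and 3 without Cutter Valencia, Xianfeng or replicate 3, and it was 13 with the variety as a random block. The peel count of 7 was 4 without Rohde Red Valencia or Xianfeng.

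**Figure D5:**
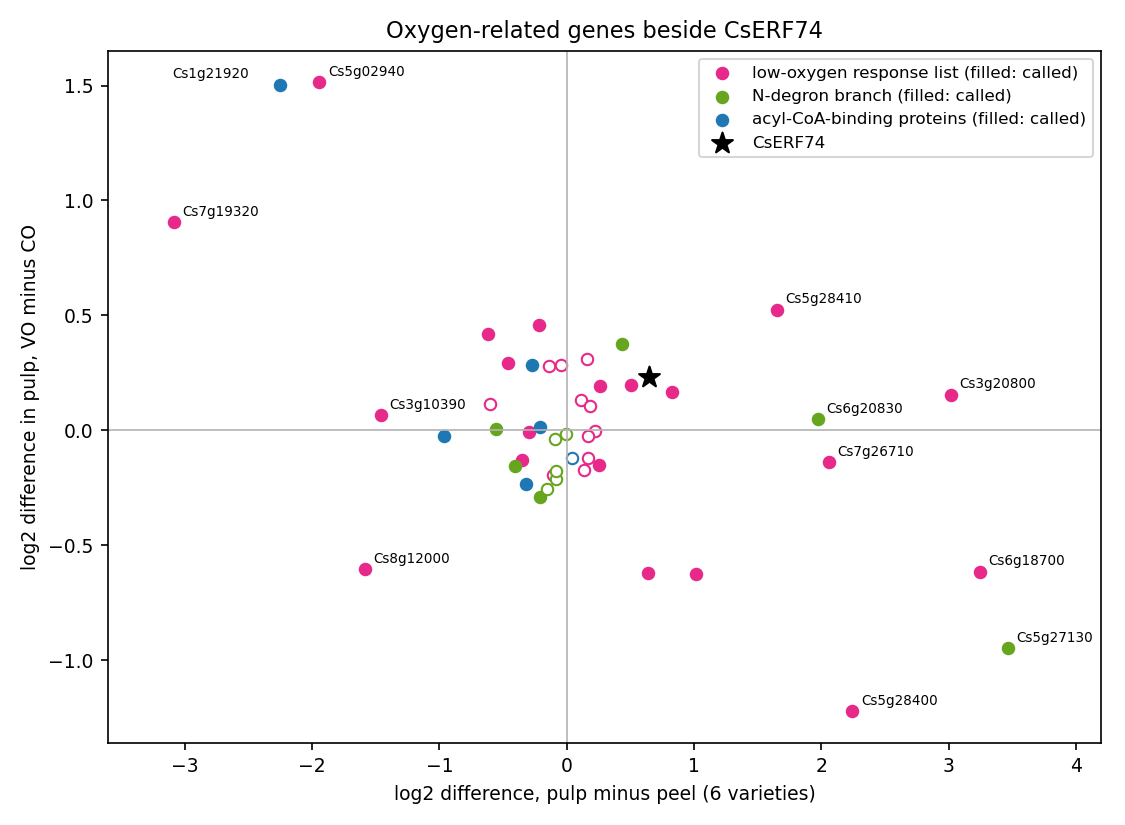
Log2 difference between pulp and peel (horizontal, pulp minus peel over 6 varieties) and between VO and CO in pulp (vertical, VO minus CO) for genes of the low-oxygen list, the N-degron branch and the acyl-CoA-binding proteins; filled points were called between tissues in limma, open points were not, and the star is CsERF74. CsERF74 lies at 0.65 and 0.23, the LBD41 match Cs6g18700 at 3.25 and -0.62, and the oxidase match Cs7g19320 at -3.08 and 0.91.

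Of 63 genes of the wider ERF and DREB family tested between tissues, 10 were higher in pulp and 37 lower, against 20.1% and 46.5% of all genes. The list's median was -0.91, against -0.23 over all genes (for the list, -0.59 after quantile normalization and -0.74 after median-ratio scaling). Cs2g14570 (match ERF114) shared the direction of CsERF74 in both comparisons. It averaged 267 ± 37.5 FPKM in VO pulp and 158 ± 34.9 FPKM in CO pulp, against 68.3 and 77.5 FPKM in VO and CO peel, which is 1.48 higher in pulp (adjusted p = 0.000494) and 0.78 higher in VO pulp than in CO pulp (adjusted p = 0.0359). The last call was lost without Cutter, Delta or Rohde Red Valencia or Jincheng. Cs9g13620 (match ERF5) went the other way, with a log2 difference of -0.83 between VO and CO pulp (adjusted p = 0.00269) and of -0.50 between pulp and peel (adjusted p = 0.00292), with 117 FPKM in VO pulp and 209 FPKM in CO pulp. The called genes of the list with the largest tissue differences were Cs3g19420 (match ERF012, -5.29), Cs5g19590 (match ERF021, -4.54), Cs8g05910 (match ERF109, -4.42) and Cs1g03290 (match ERF13, -4.31). In VO against CO pulp 8 of 53 were higher and 5 lower, near the 12.0% and 7.48% of all genes. The largest differences were those of Cs5g19590 (3.87, adjusted p = 0.0109), Cs7g05360 (match SHINE 3, a regulator of cuticle wax; 2.92, adjusted p = 0.00386), Cs5g02340 (match ERF061; -2.26, adjusted p = 0.00707) and orange1.1t00456 (match CRF5; 1.95, adjusted p = 0.0142). In peel 8 of 62 were higher and 7 lower in VOs, against 13.2% and 7.15% of all genes. Without Rohde Red Valencia 7 were called in pulp in place of 13, and without Delta Valencia 8. In peel 5 were called without Xianfeng in place of 15, 6 without Rohde Red Valencia, 7 without Cutter Valencia and 9 without Jincheng. The pulp call of orange1.1t00456 was lost without Delta or Rohde Red Valencia.

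The study's list of phenylpropanoid genes, which make the building blocks of lignin, was chosen by the study on these libraries and is not independent evidence of direction. In VO against CO pulp 7 of 23 tested genes were higher and 2 lower, against 12.0% and 7.48% of all genes, with a median of 0.29 against 0.02 over all genes. Cs5g16290 (match caffeic acid O-methyltransferase) was higher by 3.52 (adjusted p = 0.00104), with 10.8 FPKM in VO pulp and 0.876 FPKM in CO pulp. Its r with CsERF74 was 0.91 in pulp and 0.41 in peel. Genes called higher in VO pulp share the pulp gap of CsERF74, and a high pulp r follows in part from it. Of all 13440 genes compared, 548 had r of 0.9 or more in pulp. Cs1g12670 (match caffeoyl-CoA O-methyltransferase) was higher by 2.44 (adjusted p = 0.00725), and Cs8g05410, with the same kind of match, by 1.64 (adjusted p = 0.0149), with r of 0.92 in pulp and 0.17 in peel. The study names Cs2g10070 as a gene of CAD, an enzyme of lignin synthesis, and reports it higher in VOs by qRT-PCR. Its deposited description is a berberine bridge enzyme-like protein, and it was higher in VO pulp by 1.46 (adjusted p = 0.0133). The phenylalanine ammonia-lyase Cs6g11940, the first enzyme of the pathway, was higher by 0.37 (adjusted p = 0.0292), with r of 0.92 in pulp and -0.0027 in peel. Without Delta or Rohde Red Valencia 5 genes of the list were called in pulp in place of 9. The call of Cs6g11940 was lost without Cutter, Delta or Rohde Red Valencia, Jincheng or Taoye, that of Cs2g10070 without Delta or Rohde Red Valencia, and that of Cs8g05410 without Rohde Red Valencia. Between tissues 4 of 25 were higher and 16 lower in pulp, against 20.1% and 46.5% of all genes, and in peel 4 of 24 were higher and 7 lower in VOs, against 13.2% and 7.15% of all genes. Over 16 genes of this list that average 1 FPKM or more in each tissue, the median r with CsERF74 was 0.42 in pulp and 0.30 in peel. Over all genes compared it was -0.0029 in pulp and 0.05 in peel. The green tissue markers had a median r of 0.86 with CsERF74 over 22 genes in pulp, above that of the phenylpropanoid genes, and -0.20 in peel.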

How the data were processed

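RNA-seq of pulp and peel of 6 sweet orange varieties was analysed from 1 deposited table of 29654 genes. The submitters' processing notes name TopHat2, RSEM and DESeq (version 1.10.1); the genome build is not given in the sources used here. The deposited values are FPKM, which the authors scaled to gene length and mapped fragments; deposited lengths had a median ratio of 1.01 to genomic spans in RefSeq, so they probably include introns. FPKM times length gave whole fragments within 0.02 for 100% of values, which gave the mapped fragments per library; the unit being FPKM, no count model was run. All 36 sample columns were used.

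Values were analysed as log2(FPKM + 0.1), so fold changes of low genes are understated. Genes with a variety mean of at least 0.3 FPKM were kept. VO and CO were compared over the 6 variety means, and tissues over 6 pulp minus peel differences, in limma 3.58.1 under R 4.3.3, with its variance prior following expression level and p-values adjusted by Benjamini-Hochberg across every gene kept, and for CsERF74 by exact two-sided permutation tests. Called means an adjusted p under 0.05. The 15 pairs of varieties per tissue were compared over libraries. Scripts were tested on simulated data. The labels give 3 trees and the study's methods fewer per replicate, and replicate numbers did not pair samples.

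Named genes were CsERF74, group VII genes, the study's hub factors, the 10 highest and 5 lowest genes by r in both tissues, the 5 highest after subtracting group means and, of each list, up to 4 called with the largest change in a comparison and the 4 with the highest mean (all for lists of up to 8). Followers were chosen by r in these libraries and marker genes are given as sums, so neither was tested gene by gene. Lists were found by words in the deposited descriptions. Members and lists were chosen with earlier results of these data known. CsERF74 had no entry by accession in the gene table used for names (RefSeq), so no position or sequence is given.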

Additional observations from a re-analysis of the deposited data

Results flagged for a closer look

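For 12 named genes the VO minus CO difference was not the same in pulp and peel, by the limma test on the 6 pulp minus peel differences (adjusted p under 0.05). CsERF74 itself was not among them (0.21, adjusted p = 0.266). Naming took in, of each list, genes already called in this fit with the largest change, so the count of 12 follows in part from that choice. Over all 18838 genes tested, 7.05% were called in either direction. The values below are the pulp minus peel difference in VOs minus that in COs, on the log2 scale. Of the transcription factors, Cs9g03820 (match RAP2-3) had -0.87, CsNAC25 (Cs2g06460) 0.81, Cs5g19590 (match ERF021) 4.78 and orange1.1t02436 (match ERF062) 2.30. Of the universal stress proteins, Cs8g10040 had -0.43 and Cs2g16410 0.60. Of the phenylpropanoid list, Cs6g11940 (phenylalanine ammonia-lyase) had 1.94, orange1.1t02754 (cinnamoyl-CoA reductase) 1.34, Cs5g16290 2.58 and Cs8g05410 1.92, while Cs9g15670 and Cs9g15750, both described as berberine bridge enzyme-like, had -2.48 and -2.95. Leaving out 1 variety ended the call for all of these but Cs5g19590, Cs6g11940 and orange1.1t02754. No library stood apart from the rest of its group in CsERF74, its 2 expressed relatives or the 3 leading followers, in 27 groups of libraries or varieties examined.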

How the results depend on the processing

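For CsERF74, the pulp minus peel difference was called with the same sign under all 19 alternatives (0.38 to 0.82 on the log2 scale). The VO minus CO difference in pulp kept its sign under all 18 (0.13 to 0.26) and was called only when libraries served as replicates, with the variety as a random block (0.23, adjusted p = 0.000403) or the replicate number as a block (0.23, adjusted p = 2.59e-05). The same held for the gap between tissues, 0.21 in both fits (adjusted p = 3.70e-06 with the variety as a random block and 0.000506 with the replicate block). Both p-values of this gap rest on scatter between libraries and not between varieties. Same-numbered pulp and peel libraries of a variety deviated together with r of -0.03 to 0.04, so the numbers pair no samples. In peel the VO minus CO difference turned to -0.0352 after median-ratio scaling and ranged from -0.0352 to 0.0502 when 1 variety or replicate was left out. Called pairs of varieties numbered 9 to 11 in pulp and 5 to 7 in peel without 1 replicate. Of the 10 leading followers 3 remained under Spearman's rho, 3 under quantile normalization, 5 over variety means, and 1 to 6 when a variety or replicate was left out. Pairs that turned sign lay near 0: in peel, Cutter Valencia against Taoye (-0.0328 to 0.00706 without 1 replicate), Rohde Red Valencia against Xianfeng (0.0129 after quantile normalization) and Taoye against Xianfeng (0.00968 after quantile normalization), and in pulp Jincheng against Taoye (-0.0484 to 0.00101 without 1 replicate). Of 1997 alternative values for 107 calls of named genes 1791 stayed called, 206 did not, and none reversed. Stability differed by comparison. Leaving out a single variety could end 16 of 26 calls between VO and CO pulp and 11 of 22 in peel. It could end 9 of 12 calls for the gap between tissues, but only 3 of 47 calls between pulp and peel. Alternatives for lists, named genes, the ratio to relatives and the Rohde Red Valencia library were chosen after seeing the data. Depth gives CsERF74 a counting error of 0.724% to 1.05%, and genes near the filter of 0.3 FPKM a larger one.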
